A study of Mus musculus with 6 samples.

Results

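B cell and immunoglobulin genes gave an RNA signal in libraries of tumor-associated macrophages (TAMs) sorted from mouse ovarian tumors. It was followed through 7 genes, matched to the rows of the deposited expression table by Ensembl ID: Cd79a, Cd79b, Ms4a1, Pax5, Ighm, Igkc and Jchain. All 7 had 1 row each among the 56980 rows, and all 7 passed the filter on low values (1 TPM or more in 3 or more of the 6 libraries), as did 14776 genes in all. TPM is a transcript level scaled by length and by the library's total, so it can be compared between genes. The whole set differed far more within each genotype than between genotypes, whereas the shares of IgM and IgA in its heavy chains, read after the values were seen, did not overlap between WT and C5aR-/- TAMs. For levels of single genes, the groups did not overlap in 21.3% of genes tested.

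ID8 cells, a mouse ovarian surface epithelial cancer line, were injected intraperitoneally into female C57BL/6 mice, and tumors were collected 2 months later. TAMs were sorted as live CD45+CD11b+Ly6G-F4/80+ cells and their poly(A) RNA was sequenced, with 3 libraries from wild-type (WT) hosts and 3 from C5aR-/- hosts. The C5aR-/- mice, on the same C57BL/6 background, lack the complement C5a receptor in every cell type and not in macrophages alone, while the ID8 cells are of one line in both groups. The study counts its RNA-seq samples in mice, more in each group than there are libraries here. The labels do not tie a library to a mouse, so p-values measure only the spread between these samples, which may be technical. The gate holds no B cell marker, positive or negative.

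B cells bind antigen through surface immunoglobulin, built of heavy chains (Ighm for IgM, Igha for IgA) and kappa or lambda light chains (Igkc, or Iglc genes for lambda). The signal is passed on by the CD79 pair, products of Cd79a and Cd79b. Pax5 is the transcription factor that holds B cell identity, Ms4a1 encodes CD20 of the mature B cell surface, and Jchain encodes the joining chain that links secreted IgM and IgA, a gene typical of antibody-secreting cells. B cells leave precursor stages by recombining variable (V), diversity (D) and joining (J) segments, so the V segments in use report on which B cells are present. In the mouse peritoneal cavity, where ID8 tumors grow, B-1 cells are a major B cell population, and they can carry CD11b.

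The libraries themselves differed. C5ar1, the targeted gene, was at 16.2 to 86.5 TPM in WT and at 0.05 to 0.38 TPM in C5aR-/- TAMs. Adgre1, which encodes F4/80, ranged from 25.4 to 114 TPM, and Ptprc, which encodes CD45, from 29.4 TPM in C5aR-/- TAM 3 to 102.5 TPM in C5aR-/- TAM 1. WT TAM 3 and C5aR-/- TAM 3 stood apart by their low B cell signal, so the values below are given for each library. Fewer B cells and less B cell RNA per cell cannot be told apart in these bulk samples.

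The 7 genes together took 1109, 861 and 163 TPM in WT TAMs 1 to 3 and 1116, 406 and 77.9 TPM in C5aR-/- TAMs 1 to 3, between 0.00779% and 0.112% of all TPM. The 2 highest libraries, one of each genotype, were nearly level, and the lowest of each genotype lay far beneath. Each gene followed the same course. C5aR-/- TAM 3 was the lowest library for 7 of 7 genes and WT TAM 3 the next lowest for 6 of 7, while C5aR-/- TAM 1 was the highest for 4, WT TAM 2 for 2 and WT TAM 1 for 1. The highest library exceeded the lowest by 13.5-fold (Pax5) to 32.0-fold (Ms4a1). Within WT TAMs alone the range was 4.14-fold to 7.42-fold, and within C5aR-/- TAMs 11.7-fold to 17.1-fold.

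**Figure D1:**
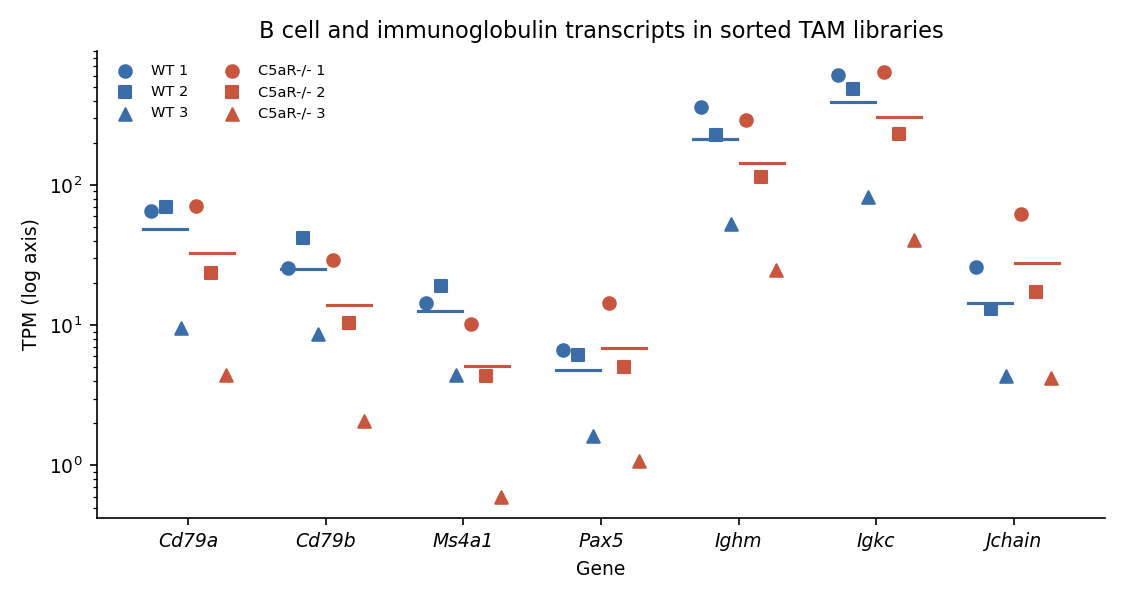
TPM (log axis) of the 7 genes in each of the 6 libraries, with blue symbols for WT and red for C5aR-/- TAMs, shapes for the library number, and lines at the group means. The groups overlap for all 7 genes, and C5aR-/- TAM 3 is the lowest point of each.

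The immunoglobulin chains were the most abundant of the set. Igkc, the constant region of the kappa light chain (chr6:70726435-70726966 on the plus strand of GRCm38), was at 609, 483 and 82.1 TPM in WT TAMs and at 639, 232 and 40.7 TPM in C5aR-/- TAMs. The groups overlapped, with the highest library in one and the lowest in the same one. The log2 difference, C5aR-/- minus WT on the log2(TPM + 1) scale, was -0.66 (standard error, SE, 1.14, adjusted p = 0.828, limma, adjusted over every gene tested). Ighm, the IgM constant region (chr12:113418558-113422730, minus strand), was at 362, 229 and 52.3 TPM in WT TAMs and at 289.5, 114 and 24.8 TPM in C5aR-/- TAMs. Its groups also overlapped, and its difference was -0.79 (SE 1.02, limma adjusted p = 0.762).

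The receptor pair followed. Cd79a (chr7:24897381-24902197, plus strand) was at 65.3, 69.7 and 9.55 TPM in WT TAMs and at 70.95, 23.4 and 4.39 TPM in C5aR-/- TAMs. Cd79b (chr11:106311341-106314762, minus strand) was at 25.7, 41.7 and 8.60 TPM in WT TAMs and at 29.4, 10.4 and 2.09 TPM in C5aR-/- TAMs. Both ran from high to very low in both genotypes. The difference was -0.80 for Cd79a (SE 1.10, limma adjusted p = 0.777) and -1.12 for Cd79b (SE 0.90, limma adjusted p = 0.614).

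Ms4a1 had the largest difference of the 7. The gene (chr19:11249675-11266241, minus strand) was at 14.5, 19.2 and 4.42 TPM in WT TAMs and at 10.3, 4.36 and 0.60 TPM in C5aR-/- TAMs, and WT TAM 3 lay within the C5aR-/- range. Its difference was -1.38 (95% interval -3.27 to 0.52, SE 0.79, adjusted p = 0.474 from limma).

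Pax5 and Jchain had mean values on the other side of 0. Pax5 (chr4:44524757-44710487, minus strand) was at 6.66, 6.15 and 1.61 TPM in WT TAMs and at 14.4, 5.01 and 1.07 TPM in C5aR-/- TAMs. Jchain (chr5:88519809-88527891, minus strand) was at 26.0, 12.95 and 4.37 TPM in WT TAMs and at 61.9, 17.3 and 4.21 TPM in C5aR-/- TAMs. For both, C5aR-/- TAM 1 was the highest library and the other C5aR-/- libraries lay within or beneath the WT range. The difference was 0.14 for Pax5 (SE 0.77, limma adjusted p = 0.953) and 0.52 for Jchain (SE 0.97, limma adjusted p = 0.842).

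None of the 7 passed adjustment (limma, threshold 0.05 and a change of 2-fold or more), and 0 of 14776 genes did (0% called). Without adjustment, 0 of the 7 were called at the same thresholds beside 4.96% of all genes tested, and 0 of the 7 had groups that did not overlap beside 21.3%. A difference below 0 was seen for 5 of the 7, beside 55.5% of all genes. The 95% intervals were wide, reaching from -3.41 to 1.82 for Cd79a, so differences of several fold in either direction were not excluded. Without C5aR-/- TAM 3 the difference turned to 0.19 for Cd79a, 0.15 for Ighm and 0.41 for Igkc, and without C5aR-/- TAM 1 it turned to -0.57 for Pax5 and -0.37 for Jchain.

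**Figure D2:**
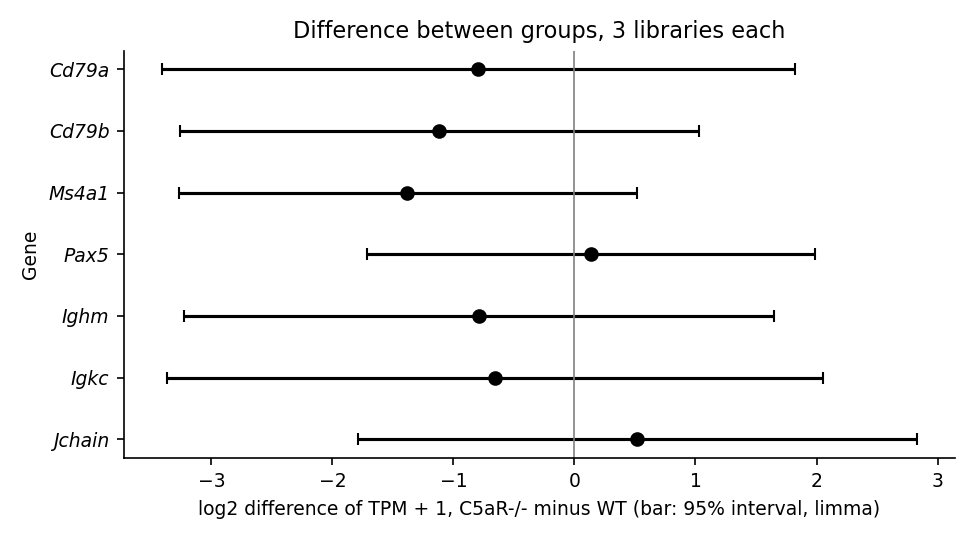
Log2 difference of TPM + 1 between C5aR-/- and WT TAMs for each of the 7 genes (points), with 95% intervals from limma (bars) over 3 libraries a group. Every interval spans 0, from -1.38 for Ms4a1 to 0.52 for Jchain.

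Since the amount of B cell signal varied by library, the genes were next set against each other within each library. This comparison was chosen after the values were seen. Of the 21 ratios between 2 of the 7 genes, 14 (66.7%) did not overlap between genotypes. The ratio of any other tested gene to one of the 7 did not overlap in 2.06% of cases. Such a ratio keeps the wide spread of the 7 genes within a genotype, which ratios between 2 of them mostly lose. The 2.06% is therefore not a like background for the 66.7%. Ratios within other gene lists did not overlap in 8.89% (T cell genes), 26.7% (macrophage genes), 16.7% (B cell receptor signaling genes), 28.6% (epithelial and mesothelial genes) and 50% (5 neutrophil genes) of pairs. These lists were not matched to the 7 for how closely their genes moved together. The ratios share genes, and the 14 were exactly those between 3 blocks: Cd79a, Cd79b, Ighm and Igkc in one, Ms4a1 alone, and Pax5 with Jchain. For single ratios the two-sided exact permutation test gave p = 0.1, the smallest that 3 libraries against 3 allow, so no ratio could pass 0.05. With 1 TPM added to each gene, 8 of the 21 did not overlap.

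Relative to the receptor genes, Ms4a1 was lower and Pax5 higher in C5aR-/- TAMs. Ms4a1 was at 22.2%, 27.5% and 46.3% of the Cd79a level in WT TAMs and at 14.5%, 18.6% and 13.7% in C5aR-/- TAMs, a separation that was lost once 1 TPM was added. Pax5 was at 10.2%, 8.82% and 16.9% of the Cd79a level in WT TAMs and at 20.3%, 21.4% and 24.4% in C5aR-/- TAMs, and this one was lost as well. Set against each other, Pax5 was at 32.1% to 46.0% of the Ms4a1 level in WT TAMs and at 115% to 178% in C5aR-/- TAMs, which stayed apart with 1 TPM added. Pax5 therefore lay beneath Ms4a1 in every WT library and above it in every C5aR-/- library.

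Jchain was higher relative to IgM. It was at 7.19%, 5.67% and 8.36% of the Ighm level in WT TAMs and at 21.4%, 15.2% and 17.01% in C5aR-/- TAMs, a log2 ratio difference of 1.34 that also stayed apart with 1 TPM added. The ratios inside the first block did overlap. Cd79a was at 111% to 255% of the Cd79b level in WT TAMs and at 210% to 242% in C5aR-/- TAMs, and Igkc was at 157% to 211% of the Ighm level in WT TAMs and at 165% to 221% in C5aR-/- TAMs.

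**Figure D3:**
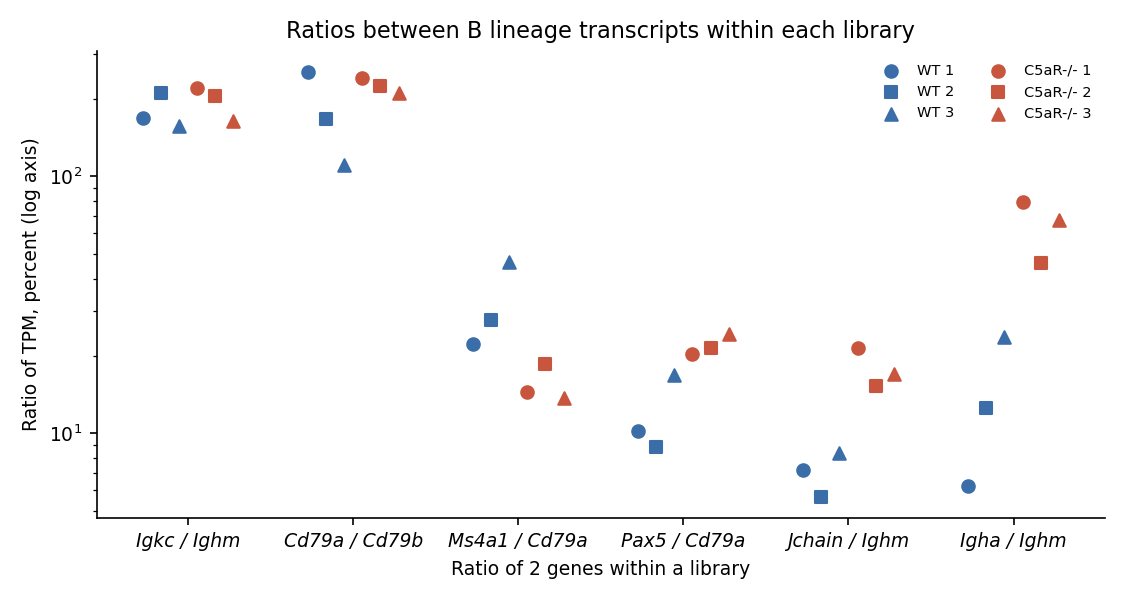
Ratio of TPM of one gene to another within each library, in percent on a log axis, with WT in blue, C5aR-/- in red and shapes for the library number. Igkc to Ighm and Cd79a to Cd79b overlap between genotypes, Ms4a1 to Cd79a is lower in C5aR-/- TAMs, and Pax5 to Cd79a, Jchain to Ighm and Igha to Ighm are higher.

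The heavy chain classes were then read from their constant region genes. The 8 of them summed to 421, 323 and 79.8 TPM in WT TAMs and to 593, 209.8 and 48.6 TPM in C5aR-/- TAMs. Ighm held 86.1%, 70.8% and 65.5% of this sum in WT TAMs and 48.8%, 54.1% and 50.9% in C5aR-/- TAMs. Igha, the IgA constant region (chr12:113254830-113260236, minus strand), held 5.37%, 8.86% and 15.6% in WT TAMs and 38.7%, 25.0% and 34.3% in C5aR-/- TAMs. The IgA share averaged 9.94% ± 5.19 (SD, n = 3) for WT libraries against 32.6% ± 7.01 (SD, n = 3) for C5aR-/- libraries, and the lowest C5aR-/- library exceeded the highest WT library.

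Class shares did not overlap for 3 of 8 heavy chain genes (37.5%): Ighm, Igha and the barely detected Ighe, at 0.27 TPM or less. Among 117 tested Ighv and Igkv segments, shares did not overlap for 7.69% on the lower and 5.13% on the higher side. Levels did not overlap for 21.3% of all genes tested. The two-sided exact permutation p was 0.1 for Igha and for Ighm, the smallest possible. Shares of one sum are tied to each other, so a higher IgA share goes with a lower IgM share. As a level, Igha was at 22.6, 28.6 and 12.4 TPM in WT TAMs and at 229, 52.4 and 16.7 TPM in C5aR-/- TAMs. These levels overlapped, with a difference of 1.51 (SE 0.88, limma adjusted p = 0.478). IgD, the other class of naive B cells, and the 4 IgG genes together overlapped, with Ighd shares of 3.55% to 9.13% and IgG shares of 4.28% to 12.9% over the 6 libraries.

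**Figure D4:**
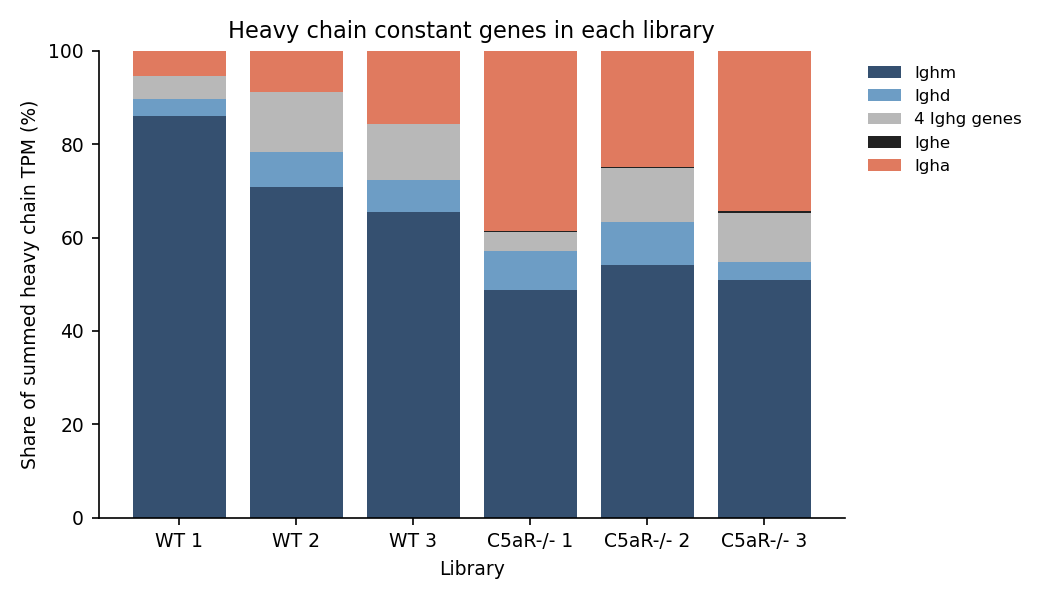
Share of each heavy chain constant gene in the summed heavy chain TPM (percent, stacked bars) in each library. The Igha share is 5.37% to 15.6% in WT and 25.0% to 38.7% in C5aR-/- TAMs, and the Ighm share is lower in all 3 C5aR-/- libraries.

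On the light chain side, lambda genes (Iglc1, Iglc2 and Iglc3) held 11.95%, 16.7% and 25.2% of light chain constant TPM in WT TAMs and 9.17%, 11.4% and 8.68% in C5aR-/- TAMs. The groups did not overlap, by a narrow margin, and the remainder was Igkc. The 3 lambda genes are close copies that share reads, so only their sum is given.

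The table lists 382 V, D and J segments, of which 200 were at 0 in all 6 libraries and 120 passed the filter. No D or J segment was above 0 in any library. V segments summed to 1829, 1338 and 306 TPM in WT TAMs and to 3018, 876 and 149 TPM in C5aR-/- TAMs, in the same order of libraries within each genotype as the constant genes. Between 73 and 149 segments were above 0 in a library, and the leading segment held 7.36% to 12.03% of its Ighv or 7.81% to 9.73% of its Igkv sum. The 3 leading segments held 17.8% to 30.0% of the Ighv and 20.1% to 25.2% of the Igkv sum, so no single segment dominated any library. The leading heavy chain segment was Ighv1-78 in WT TAM 1, Ighv11-2 in WT TAM 2, Ighv1-34 in WT TAM 3, Ighv1-55 in C5aR-/- TAM 1 and Ighv1-82 in C5aR-/- TAMs 2 and 3. Igkv6-23 led the kappa segments in 3 libraries, WT TAM 2 and C5aR-/- TAMs 1 and 2.

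Without adjustment (p under 0.05, change of 2-fold or more), 2 of the 120 tested segments (1.67%) were called, both lower in C5aR-/- TAMs, beside 2.84% of all genes called lower and 2.13% called higher. They were Ighv12-3 and Igkv14-126, and neither passed adjustment. Both are known from the natural antibody repertoire of peritoneal B-1a cells, where Ighv11-2 pairs with Igkv14-126 and Ighv12-3 with Igkv4-91 to bind phosphatidylcholine. These 4 segments were set side by side after their values were seen. Their germline sequences are shown because they define what the reads were assigned to. Printed are the last 240 coding bases of each (GENCODE M21, GRCm38), 5′ to 3′ on the coding strand, with capitals from the last in-frame cysteine codon. The third complementarity-determining region, the part most in contact with antigen, begins after that codon.
Ighv11-2: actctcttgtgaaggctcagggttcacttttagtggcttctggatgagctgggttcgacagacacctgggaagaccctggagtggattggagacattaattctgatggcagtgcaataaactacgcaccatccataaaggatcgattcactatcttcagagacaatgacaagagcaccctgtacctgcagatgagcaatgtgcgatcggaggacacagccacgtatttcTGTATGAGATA
Ighv12-3: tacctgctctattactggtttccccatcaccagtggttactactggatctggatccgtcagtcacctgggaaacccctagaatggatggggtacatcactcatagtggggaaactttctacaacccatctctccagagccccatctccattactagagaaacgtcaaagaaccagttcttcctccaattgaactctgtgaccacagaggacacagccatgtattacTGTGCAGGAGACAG
Igkv14-126: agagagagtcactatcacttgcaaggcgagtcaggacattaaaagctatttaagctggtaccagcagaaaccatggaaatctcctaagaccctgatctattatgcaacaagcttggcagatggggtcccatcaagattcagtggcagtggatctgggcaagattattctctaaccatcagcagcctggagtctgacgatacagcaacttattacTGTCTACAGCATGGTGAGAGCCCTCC
Igkv4-91: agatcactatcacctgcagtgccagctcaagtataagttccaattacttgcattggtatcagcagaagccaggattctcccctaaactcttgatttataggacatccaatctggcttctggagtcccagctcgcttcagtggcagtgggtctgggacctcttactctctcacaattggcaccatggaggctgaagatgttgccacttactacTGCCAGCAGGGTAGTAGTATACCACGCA

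Ighv11-2 lies at chr12:114048241-114048812 and Ighv12-3 at chr12:114366521-114366954, both on the minus strand of the heavy chain locus. Igkv14-126 lies at chr6:67896172-67896642 on the plus strand and Igkv4-91 at chr6:68768555-68769103 on the minus strand of the kappa locus. Over the whole coding sequence Ighv11-2 was 98.9% identical to its nearest other V segment, Ighv11-1, with 4 of 353 bases different, so reads of this pair may have been split between them. The other 3 were further from any neighbor, at 77.7% identity for Ighv12-3, 91.5% for Igkv14-126 and 87.2% for Igkv4-91.

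Ighv12-3 was at 41.1, 21.4 and 2.86 TPM in WT TAMs and at 0, 6.11 and 0 TPM in C5aR-/- TAMs. Its share of the Ighv sum was 5.65%, 4.88% and 2.82% in WT TAMs and 0%, 1.71% and 0% in C5aR-/- TAMs. Igkv14-126 was at 90.9, 66.2 and 7.24 TPM in WT TAMs and at 10.9, 2.49 and 1.5 TPM in C5aR-/- TAMs, a difference of -2.98 (SE 1.0, adjusted p = 0.269 from limma). It held 8.82%, 7.96% and 3.99% of the Igkv sum in WT TAMs and 0.680%, 0.500% and 1.71% in C5aR-/- TAMs. As shares, both segments separated the genotypes, and as TPM levels both overlapped through WT TAM 3. The whole Ighv sum was only 101.5 TPM in WT TAM 3 and 58.2 TPM in C5aR-/- TAM 3, so shares in these 2 libraries rest on values near the floor.

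Igkv4-91 held 9.73%, 3.24% and 2.99% of the Igkv sum in WT TAMs and 1.02%, 0.998% and 2.58% in C5aR-/- TAMs, apart by a small margin. Ighv11-2 held 7.71%, 7.97% and 1.21% of the Ighv sum in WT TAMs and 1.10%, 1.25% and 2.39% in C5aR-/- TAMs, which overlapped through WT TAM 3. The heavy chain pair together made up 13.4%, 12.9% and 4.03% in WT TAMs and 1.10%, 2.96% and 2.39% in C5aR-/- TAMs. The kappa pair made up 18.6%, 11.2% and 6.99% in WT TAMs and 1.70%, 1.5% and 4.29% in C5aR-/- TAMs. Each sum holds a segment picked for being lower, so these sums are a description with no test. Among 117 tested Ighv and Igkv segments, shares did not overlap for 9 on the lower side (7.69%), 3 of these segments among them. On the higher side they did not overlap for 6 (5.13%). The lower 9 also held Igkv17-121, at 1.17% to 5.85% of the Igkv sum in WT and 0% to 0.672% in C5aR-/- TAMs. Ighv1-78 was another, at 2.69% to 9.78% of the Ighv sum in WT and 0% to 1.76% in C5aR-/- TAMs. Their differences in level were -2.6 and -2.2, beside -1.92 for Igkv4-91 and -1.51 for Ighv11-2. Lower shares were therefore not particular to the 4 segments set side by side.

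**Figure D5:**
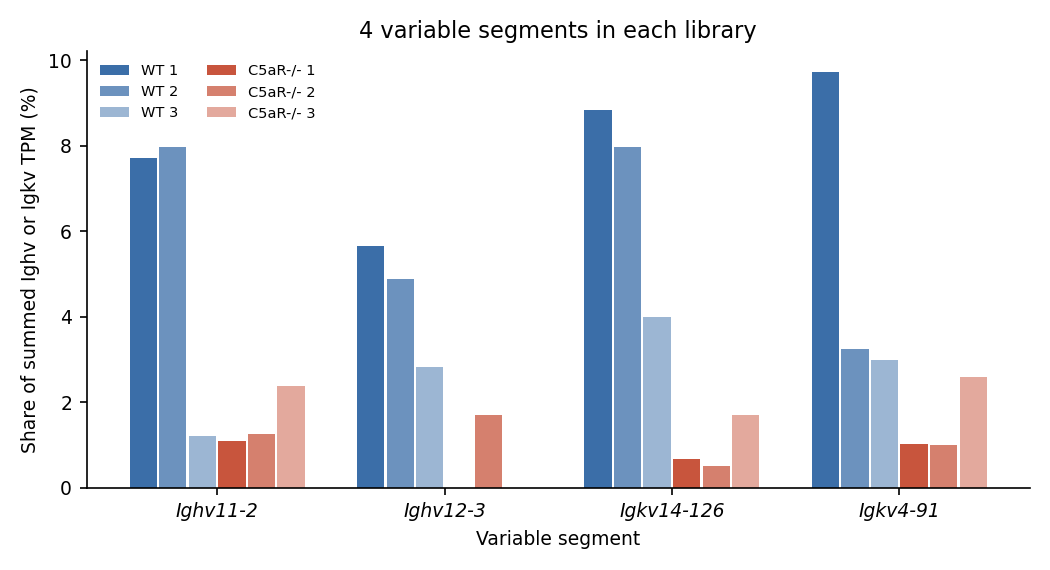
Share of 4 variable segments in the summed Ighv or Igkv TPM (percent, bars from 0) in each library, WT in blues and C5aR-/- in reds. Ighv12-3, Igkv14-126 and Igkv4-91 are lower in all 3 C5aR-/- libraries, and Ighv11-2 is high in WT TAMs 1 and 2 alone.

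The wider B lineage was read from 75 further genes in lists of surface, signaling, transcription factor, plasma cell, class, precursor, germinal center and B-1 genes, of which 62 were tested. None passed adjustment. Without adjustment, 1 was called lower (beside 2.84% of all genes) and 2 were called higher (beside 2.13%), and the median difference was -0.19 beside -0.05 over all genes. The lower one was Zbtb32 (chr7:30589681-30598909, minus strand), a transcriptional repressor known from B-1 and memory B cells. It was at 3.20, 5.14 and 2.80 TPM in WT TAMs and at 0.77, 0.32 and 1.0 TPM in C5aR-/- TAMs, without overlap, and its difference was -1.46 (SE 0.29, limma adjusted p = 0.121). In WT TAM 3, where the 7 genes were low, it lay close to its level in WT TAM 1. The other 3 genes of the B-1 list overlapped between genotypes. Bhlhe41, a transcription factor of B-1a cells, was at 7.21, 6.67 and 3.04 TPM in WT TAMs and at 6.52, 9.79 and 7.56 TPM in C5aR-/- TAMs, a difference of 0.48. The difference was -0.70 for Cd5, which T cells also express, and -0.23 for Spn, which encodes CD43.

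The higher ones were Cd72, a coreceptor of B cells that macrophages can express too, with a difference of 1.02 (adjusted p = 0.289 from limma), and Fkbp11, a folding factor of the secretory pathway on the plasma cell list, with 1.27 (adjusted p = 0.290 from limma). Neither took the course of the 7 genes. Cd72 was at 39.0, 42.0 and 40.1 TPM in C5aR-/- TAMs. Fkbp11 was at 14.5, 12.4 and 9.87 TPM in WT TAMs and at 22.1, 19.5 and 66.0 TPM in C5aR-/- TAMs, highest in C5aR-/- TAM 3, where the 7 genes were lowest. Pou2af1, a B cell coactivator, was at 21.03, 19.7 and 3.54 TPM in WT TAMs and at 30.0, 8.69 and 1.45 TPM in C5aR-/- TAMs. It took the course of the 7 genes, with C5aR-/- TAM 1 highest and C5aR-/- TAM 3 lowest, and its groups overlapped. Fcrl5, a receptor of innate-like B cells, missed the filter at 5.17, 3.93 and 0.90 TPM in WT TAMs and 0.73, 0.19 and 0.43 TPM in C5aR-/- TAMs.

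Plasma cell genes did not move as a group. Of 10 tested, 6 had a difference below 0 and 4 above. Xbp1, which drives the secretory program and is used by many cell types, was at 268 to 308 TPM in WT and 166 to 226 TPM in C5aR-/- TAMs (difference -0.52, adjusted p = 0.224 from limma). Sdc1, which encodes CD138 and is also an epithelial gene, was at 30.4 to 45.7 TPM in WT and 53.2 to 62.2 TPM in C5aR-/- TAMs (difference 0.72, adjusted p = 0.188 from limma). Mzb1, an immunoglobulin chaperone of B-1, marginal zone and plasma cells, was at 11.9, 9.86 and 2.23 TPM in WT TAMs and at 9.82, 6.33 and 1.78 TPM in C5aR-/- TAMs, following the 7 genes. Tnfrsf17, which encodes the plasma cell receptor BCMA, was listed at 0 in all 6 libraries.

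Genes of developing B cells were close to absent. Rag1 and Rag2, the recombinase, were at 0.01 TPM or less, Vpreb2 was listed at 0 throughout, and Vpreb1 of the surrogate light chain was at 0, 2.05 and 1.11 TPM in WT TAMs and listed at 0 in C5aR-/- TAMs. Of 7 attractant and survival factor genes, 5 were tested, 4 with a difference below 0 and 1 above, and 0 were called with or without adjustment by limma. Cxcl13, the chemokine that draws B cells, was at 72.8, 17.9 and 13.02 TPM in WT TAMs and at 17.2, 17.8 and 4.83 TPM in C5aR-/- TAMs, overlapping. Tnfsf13, which encodes the survival factor APRIL, was at 105, 119 and 115 TPM in WT TAMs and at 82.7, 101 and 90.2 TPM in C5aR-/- TAMs, with a difference of -0.31 (adjusted p = 0.348 from limma).

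Other cell types differed between the same libraries, and their part in the B cell values was not tested. The 10 macrophage genes summed to 3154, 1397 and 1187 TPM in WT TAMs and to 4007, 2265 and 1434 TPM in C5aR-/- TAMs, highest in library 1 of each genotype as most of the 7 genes were. Against Adgre1, Cd79a was at 57.1%, 152% and 37.7% in WT TAMs and at 77.8%, 58.4% and 15.7% in C5aR-/- TAMs, which overlapped. The 10 T cell genes took another course, at 40.3, 107 and 148 TPM in WT TAMs and at 119, 58.3 and 33.4 TPM in C5aR-/- TAMs, so WT TAM 3, low in B cell genes, was the highest in T cell genes. Neutrophil genes summed to 626 to 2299 TPM in WT and to 30.8 to 388 TPM in C5aR-/- TAMs. Erythroid genes summed to 361 to 7262 TPM in WT and to 333 to 26558 TPM in C5aR-/- TAMs. The 7 epithelial and mesothelial genes summed to 2333 to 2665 TPM in WT and to 2283 to 2869 TPM in C5aR-/- TAMs. This was above the macrophage sum in libraries 2 and 3 of each genotype. Of 4 mast cell genes, 3 were called lower without adjustment (beside 2.84% of all genes) and 1 higher (beside 2.13%).

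Among tested genes outside the lists, the course over the 6 libraries nearest to that of Cd79a, Cd79b and Ms4a1 belonged to Ly6d, a lymphoid surface gene, with a root mean square distance of 0.126 on the centered log2(TPM + 1) scale beside a median of 1.337 over all genes tested. Ly6d was at 43.1, 54.4 and 11.0 TPM in WT TAMs and at 32.7, 14.7 and 2.70 TPM in C5aR-/- TAMs. Also near were Ccl4 (0.296), ENSMUSG00000120754 (0.349) and S1pr1 (0.394). For Ighm and Igkc the nearest were Clec4d (0.250), Pde2a (0.324), Cxcl2 (0.350), Ccl3 (0.388) and Il10 (0.409), beside a median of 1.48. Those 5 include myeloid chemokine genes, so a shared course over 6 libraries did not single out B lineage genes.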

How the data were processed

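Poly(A) RNA of sorted TAMs was sequenced in 6 libraries, grouped by their labels. Per the labels and the paper's methods, the authors trimmed reads with fastp, aligned them with HISAT2 (mm10, the UCSC name of GRCm38) and assembled transcripts with StringTie; RSEM and DESeq2 are also named, and versions are not given in the sources used here. The deposited values are TPM per gene. TPM keeps no depth, so depth is unknown and no counting interval is given. Low segment values were coarser in C5aR-/- TAM 1. Some stood at 3.00, 5.99 and 8.99 TPM there, beside 0.87, 1.75 and 2.62 TPM in WT TAM 2. All 134 segments above 0 in C5aR-/- TAM 1 were at 1 TPM or more, beside 130 of 149 in WT TAM 1 and 49 of 73 in C5aR-/- TAM 3. A value of 0 can be a failed estimate. The deposited group means equal the means of the libraries and were not used.

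Symbols and coordinates came from GENCODE M21. The groups were compared with limma 3.58.1 (R 4.3.3; lmFit and eBayes with trend, group only) on log2(TPM + 1), keeping genes at 1 TPM or more in 3 or more libraries, with Benjamini-Hochberg adjustment over 14776 genes. The fit was tested on simulated data. Ratios and shares used an exact permutation test. The 7 genes and the gene lists were chosen with earlier results of these data known. Named genes are the 7, list genes by counts with examples, the 3 leading segments per library by rule, and the 5 nearest profiles. Some genes that the rule names are not reported here. Counting may split reads between near-identical segments.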

Additional observations from a re-analysis of the deposited data

How the results depend on the processing

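Depth is unknown, and Ms4a1 and Pax5 were near 1 TPM in the lowest library. The number of the 7 genes past the adjusted threshold was 0 under every alternative run: 0.1 as pseudocount, all genes kept, a filter at 5 TPM, quantile and median-of-ratios scaling, totals without immunoglobulin rows, eBayes without trend, the replicate block, each library left out and the alternatives chosen after seeing the data. In most of these runs no gene of any kind passed, so the count of 0 among the 7 could not differ there. Genes outside the 7 passed with eBayes without trend (2) and with scaling to equal Ptprc (83). They also passed without C5aR-/- TAM 1 (356 genes), TAM 2 (1 gene) or TAM 3 (3 genes). Past the unadjusted threshold, the main run called 0 of the 7 beside 4.96% of all genes tested. With the replicate block this went to 1 (Ms4a1) beside 5.49%. With scaling to equal Ptprc, where the median of all genes moved to 0.20, it went to 1 (Ms4a1) beside 5.62%. With a macrophage index as covariate it went to 2 (Ms4a1 and Ighm) beside 6.46%. With each library left out it was between 0 and 2. The 2 were Ms4a1 and Cd79b without C5aR-/- TAM 1, beside 8.57% of all genes. The cause was not tested. With the macrophage index the difference turned to -0.35 for Pax5 and to -0.16 for Jchain.

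With each library left out, the difference ranged from -1.70 to 0.19 for Cd79a, from -1.90 (without C5aR-/- TAM 1) to -0.25 (without C5aR-/- TAM 3) for Cd79b, from -1.60 to 0.15 for Ighm, from -1.56 to 0.41 for Igkc, from -0.57 to 0.88 for Pax5 and from -0.37 to 1.42 for Jchain. Pax5 turned to -0.36 and Jchain to -0.10 without WT TAM 3. Ms4a1 stayed between -2.03 and -0.62. The ratios that did not overlap numbered 14 to 19 of 21 with a library left out. Leaving out a library can only keep or raise this number, so it is no check on it. With 1 TPM added the number fell to 8. The IgA share stayed 19.7 to 26.5 percentage points higher and the IgM share differed by -27.1 to -16.8 points.

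Whether replicate numbers pair the samples was not settled. Deviations of same-numbered libraries correlated at 0.19, -0.01 and 0.27, and those of differently numbered libraries at -0.23 to 0.09. With the replicate block the SE ran from 0.19 (Ighm) to 0.45 (Cd79b), beside 0.77 (Pax5) to 1.14 (Igkc) without it. With the replicate block, the smallest adjusted p of the 7 genes was 0.205 from limma. Without C5aR-/- TAM 1, 356 genes passed adjustment, none of the 7 among them.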
